A study of Mus musculus with 10 samples.

Results

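The BCL2 family decides whether a stressed cell opens its mitochondria and dies, and 10 of its genes were followed here in macrophages sorted by whether they had engulfed apoptotic cells. The genes were taken by name, with no value in the rule: 5 that block death (Bcl2, Bcl2l1, Mcl1, Bcl2a1b and Bcl2a1d), 4 BH3-only genes that trigger it (Bcl2l11, Bmf, Bbc3 and Bid) and 1 effector (Bax). The set was nevertheless chosen with earlier results of these data known. All 10 were found by symbol among the 55414 gene identifiers of the count tables, and all 10 passed the filter on low counts in every comparison. In wound macrophages that had engulfed dying cells (Eff+), Bcl2l1 rose 3.16-fold and Mcl1 rose 1.80-fold against those that had not (Eff-), while no member fell. Of all 14908 genes tested in the wound, 11.2% were called, and no gene was called once Eff+ library 2 was left out. In the cultured macrophages no member passed the test, and neither did any of the 14867 genes tested. On simulated counts of the culture design 0% of 4-fold changes were called, so a missing call says little there.

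The family works by binding between its own members. The anti-apoptotic proteins (BCL2, BCL-XL from Bcl2l1, MCL1, and the A1 proteins from the Bcl2a1 genes) hold BAX and the related BAK in check on the outer mitochondrial membrane. BH3-only proteins (BIM from Bcl2l11, BMF, PUMA from Bbc3, and BID) occupy the anti-apoptotic proteins or act on BAX and BAK directly, which then form pores that release cytochrome c and set off caspases. BIM is known for killing blood cells that lose their cytokines, PUMA for its induction by p53, BMF for cells that lose attachment, and BID for carrying the signal of death receptors to mitochondria. Among white cells of a wound, neutrophils are short-lived and known to need MCL1, and A1 is abundant in activated myeloid cells.

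Polyadenylated RNA of 10 mouse libraries was sequenced. The wound libraries (3 Eff+ and 3 Eff-) are of macrophages taken on day 3 after wounding from skin of LysMCreER/mTmG mice that all received tamoxifen, for 6 days. In these mice a tamoxifen-inducible Cre under the lysozyme M gene switches a membrane-bound reporter from red to green, and lysozyme M is active in neutrophils as well as in macrophages. The culture libraries (2 Eff+ and 2 Eff-) are of wild-type bone marrow cells grown in GM-CSF for 7 days, and the labels give exposure to apoptotic fibroblasts for 12 h for all 4. The column names of culture Eff- hold the letters NOAC, so whether those cells met apoptotic cells is unclear. GM-CSF cultures of bone marrow are known to hold dendritic-like cells beside macrophages. The ages of the mice and a link between a replicate number and an animal or culture are not given in the labels, so p-values measure the spread between these libraries, which may be technical.

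Library totals were 39735437 to 57308823 counts in the wound and 17622740 to 27261880 in culture. Both wound libraries numbered 2 stood apart, with 159484 (Eff+) and 345046 (Eff-) counts of Lyz2, the lysozyme M gene, against 160 to 413 in the other 4. In culture, the Eff+ libraries numbered 1 and 2 detected 35649 and 19649 genes, and the Eff- libraries 44836 and 18171. Defining markers of the labelled cell type were present: Cd14, Cd68 and C1qb averaged 17099, 1251 and 1209 CPM (counts scaled to a common library size by the trimmed mean of M-values) in the wound, and Cd68, Csf1r and C1qb 1596, 1170 and 1099 CPM in culture. Neutrophil markers moved with the groups in the wound. The 20 markers summed to 3.26 to 4.14% of counts in Eff+ and 0.658 to 1.18% in Eff-, led by S100a8, S100a9 and Hdc, and 16 of the 20 rose in Eff+. Of the 12 macrophage markers, 11 were lower in Eff+, with a median log2 fold change of -1.03, and 6 of them fell. The exception was Cd14, which rose and made up most of the markers' sum (2.10 to 2.57% of counts in Eff+ and 1.91 to 2.14% in Eff-). The libraries are of bulk RNA. A change in the number of cells of a type, a change in RNA per cell and RNA of engulfed cells cannot be told apart.

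The 250 bases before a RefSeq start site (build GRCm38.p6) are shown for the 2 members that rose in the wound and for Bcl2l11 and Bbc3, the BH3-only members of largest log2 fold change in the wound. Each sequence runs 5′ to 3′ on the gene's strand towards the start, and capitals mark a match to the FOXO letters GTAAACA on either strand.
Bcl2l1, chr2:152831729-152831978, minus strand: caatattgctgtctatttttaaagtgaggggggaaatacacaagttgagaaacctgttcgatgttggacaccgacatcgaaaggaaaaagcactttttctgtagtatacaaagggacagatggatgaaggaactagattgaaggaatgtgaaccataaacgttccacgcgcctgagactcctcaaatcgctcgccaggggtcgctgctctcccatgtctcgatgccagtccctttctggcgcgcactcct
Mcl1, chr3:95658471-95658720, plus strand: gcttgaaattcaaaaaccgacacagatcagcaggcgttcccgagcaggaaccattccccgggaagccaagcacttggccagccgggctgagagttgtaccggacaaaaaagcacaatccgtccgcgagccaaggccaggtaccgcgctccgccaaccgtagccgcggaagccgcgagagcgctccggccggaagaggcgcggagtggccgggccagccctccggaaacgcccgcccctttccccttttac
Bcl2l11, chr2:128125788-128126037, plus strand: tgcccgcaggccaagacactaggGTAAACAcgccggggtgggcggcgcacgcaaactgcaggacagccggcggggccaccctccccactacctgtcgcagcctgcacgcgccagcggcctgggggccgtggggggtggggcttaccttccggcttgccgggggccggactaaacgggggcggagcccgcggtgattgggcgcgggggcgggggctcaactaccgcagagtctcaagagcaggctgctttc
Bbc3, chr7:16310011-16310260, plus strand: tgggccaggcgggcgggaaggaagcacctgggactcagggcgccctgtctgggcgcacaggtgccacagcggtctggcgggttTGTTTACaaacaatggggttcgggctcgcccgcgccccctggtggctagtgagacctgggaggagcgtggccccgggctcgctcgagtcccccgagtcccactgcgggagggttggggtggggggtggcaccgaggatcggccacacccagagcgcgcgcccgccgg
These windows held 12, 26, 24 and 23 CpG dinucleotides in that order, against a median of 6 over all windows. The FOXO letters lay 227 to 221 bases before the Bcl2l11 start and 167 to 161 bases before the Bbc3 start, and 3.17% of the 32544 windows of all genes held them. For these 2 genes the window with the match is the one shown, and the other Bcl2l11 window and the other 2 Bbc3 windows held no FOXO match. FOXO3 is known as a factor that acts on both genes. Another 6 motifs were searched on both strands: NF-kB (in 7.28% of all windows), AP-1 as TGANTCA (6.73%), the cyclic AMP element as TGACGTC (2.80%), STAT as TTCNNNGAA (7.04%), the CEBP-ATF element as TGATGNAA (3.40%) and SRF (1.48%). None of the 6 was found in the 4 windows shown, which says only that those letters are not there. Over the 17 windows of the 10 members, NF-kB matches lay before another Bbc3 start and another Bcl2l1 start, AP-1 matches before Bcl2a1b and Bcl2a1d, and a CEBP-ATF match before Bcl2a1b. No match of one motif overlapped a match of another in these windows. A match is a description of the letters and not a site.

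Compared per length, Mcl1 was the most abundant member in the wound. Its level was 305 ± 25.9 RPKM (CPM per kilobase of exon, SD, n = 3) in Eff+ and 169 ± 13.3 in Eff-, above every other member in each group with no overlap of ranges. In Eff- it was followed by Bax (88.5), Bcl2a1d (54.9), Bcl2a1b (45.5), Bcl2l11 (35.2), Bcl2l1 (20.6), Bid (9.92), Bbc3 (2.96), Bmf (0.53) and Bcl2 (0.30), all in RPKM. Neighbours in that order overlapped only between the 2 Bcl2a1 genes, between Bcl2a1b and Bcl2l11, and between Bmf and Bcl2. In Eff+, Bcl2l11 (88.6), Bax (80.4), Bcl2a1b (65.5), Bcl2l1 (65.1) and Bcl2a1d (59.7) formed a middle group in which each neighbour overlapped the next. Bid (13.9), Bbc3 (5.01), Bmf (0.56) and Bcl2 (0.28 RPKM) followed with no overlap between neighbours. Bcl2, the gene the family is named for, was thus the lowest member in both wound groups.

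In culture the order was different. Bax led, at 135 ± 41.5 RPKM (SD, n = 2) in Eff+ and 127 ± 9.66 in Eff-, and Bcl2l1 was next, at 134 ± 110 and 99.6 ± 93.9, with ranges that overlapped those of both neighbours. Mcl1 was the third, at 53.1 ± 7.44 and 63.1 ± 16.2 RPKM. The spread of Bcl2l1 came from the replicate numbers: Eff+ held 971 CPM in library 1 and 261 in library 2, and Eff- held 761 and 152. Levels across the models come from tables scaled separately and were not tested. Side by side, every wound library was above every culture library for Mcl1, Bcl2a1b, Bcl2a1d and Bcl2l11, and every wound library was below every culture library for Bax, Bcl2, Bid and Bmf. The ranges overlapped for Bcl2l1 and Bbc3. The share of all genes that separate the models in this way was not counted, so no reading particular to the members is drawn. For Bcl2l11 the ranges were 205 to 996 CPM in the wound and 31.1 to 72.6 in culture.

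**Figure D1:**
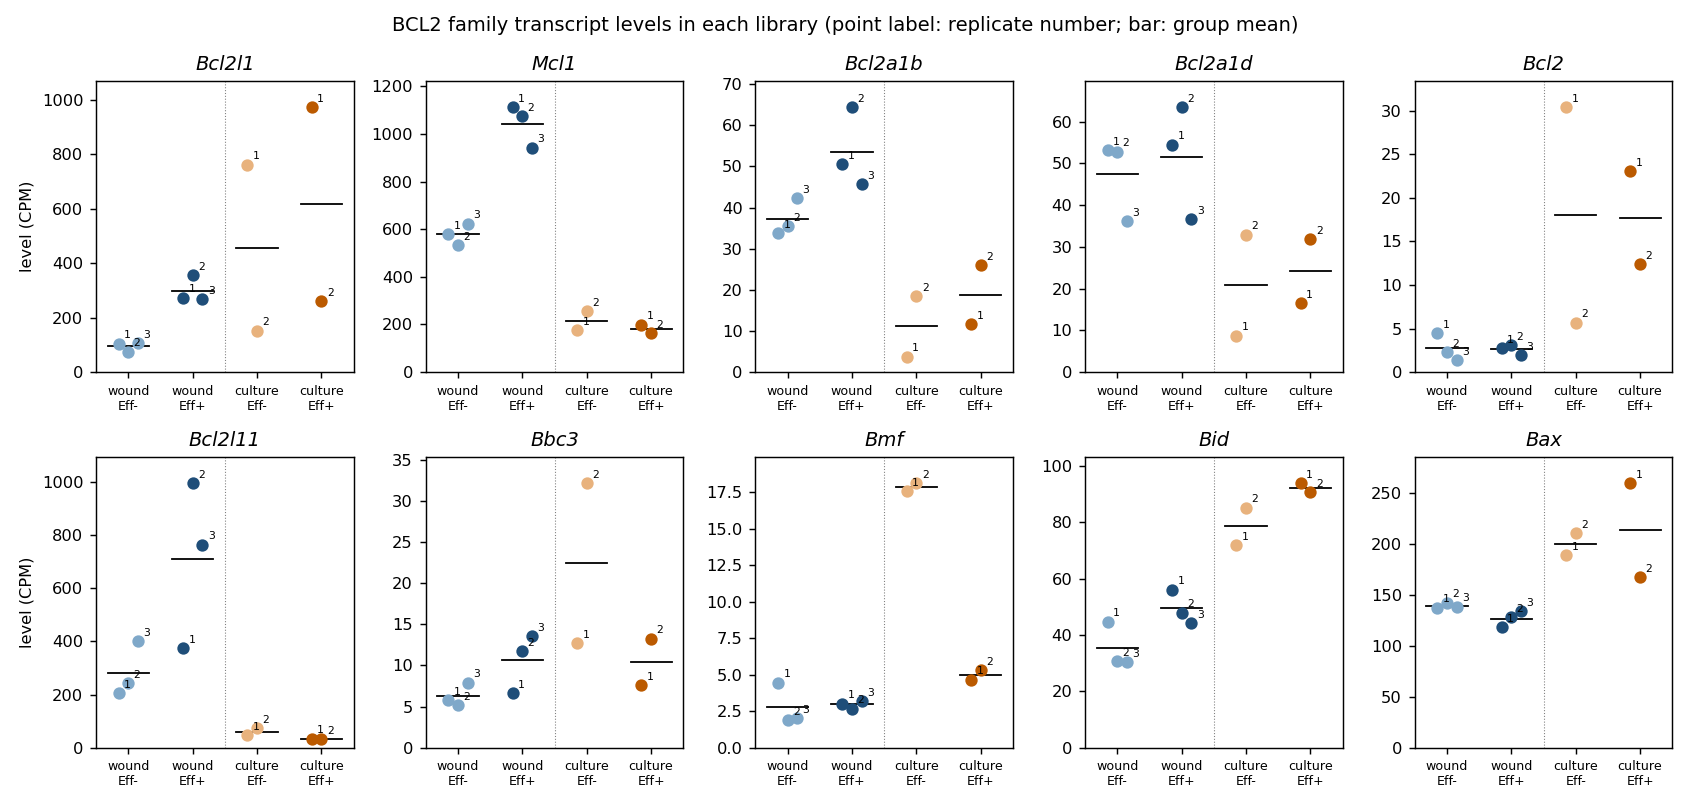
Level of each BCL2 family member in CPM on a linear axis from 0, with 1 point per library (numbered by replicate) and a bar at the group mean (n = 3 per wound group, n = 2 per culture group). Bcl2l1 and Mcl1 points of wound Eff+ lie above all points of wound Eff-, and Bmf points of culture Eff+ (4.66 and 5.32 CPM) lie below those of culture Eff- (17.6 and 18.1 CPM).

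The first comparison asked whether wound macrophages that had engulfed dying cells differed from the others in the genes that block death. Bcl2l1 encodes BCL-XL, which binds BAX, BAK and BH3-only proteins, and lies on chromosome 2 from 152622588 to 152673648 (GRCm39). It was at 272, 356 and 267 CPM in Eff+ libraries 1, 2 and 3 and at 104, 74.6 and 105 CPM in the Eff- libraries. The lowest Eff+ library stood far above the highest Eff- library. The log2 fold change was 1.66 ± 0.21 (SE), with an edgeR adjusted p of 0.0097 over 14908 genes. Without Eff+ library 2 it was 1.51 with adjusted p = 0.0576, and without both libraries numbered 2 it was 1.37 with adjusted p = 0.198, so that the call ended while the direction stayed.

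Mcl1 encodes a short-lived protein that guards BAK and BAX, and lies on chromosome 3 from 95566099 to 95570487. It was at 1111, 1075 and 943 CPM in Eff+ and at 580, 532 and 623 CPM in Eff-. The groups did not overlap, and the 3 libraries within each group lay within 1.18 times of each other. Its log2 fold change was 0.85 ± 0.17 (SE, edgeR adjusted p = 0.023). The call ended without Eff+ library 2 (0.83, adjusted p = 0.101), without Eff- library 1 (0.83, 0.0817), without Eff- library 2 (0.77, 0.0967), without both libraries numbered 2 (0.77, 0.279) and with scaling by library totals only (0.46, 0.0646).

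Bcl2a1b and Bcl2a1d are copies on chromosome 9 that encode A1 proteins, which bind BIM and other BH3-only proteins. Their transcripts differ at 7 of 817 aligned bases (99.1% identical), so how reads were split between them is uncertain. Reads that match more than 1 copy may also not have been counted. The levels of these genes, and their sum below, may therefore be too low. Bcl2a1b was at 50.5, 64.3 and 45.6 CPM in Eff+ and 33.8, 35.5 and 42.3 CPM in Eff-. These groups did not overlap, but the difference did not pass the test (log2 0.52 ± 0.19 SE, edgeR adjusted p = 0.105). With scaling by library totals only, the Bcl2a1b difference was 0.13 (edgeR adjusted p = 0.619). Bcl2a1d was at 54.5, 63.4 and 36.7 CPM in Eff+ and 53.2, 52.8 and 36.1 CPM in Eff-, with overlapping groups (0.12 ± 0.25, adjusted p = 0.782). The sum of Bcl2a1a, Bcl2a1b and Bcl2a1d, which does not depend on the split among them, was 142, 179 and 110 CPM in Eff+ and 114, 122 and 103 CPM in Eff-, and the groups overlapped.

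Bcl2 was scarce in the wound, at 2.74, 3.09 and 1.96 CPM in Eff+ and 4.49, 2.28 and 1.35 CPM in Eff-. The groups overlapped, and the log2 difference was -0.06 ± 0.51 (SE, edgeR adjusted p = 0.95). The library with the most Bcl2 was Eff- library 1. Of the 5 anti-apoptotic members, 2 rose, none fell and 3 did not pass the test, with a median log2 fold change of 0.52. Of all 14908 genes tested, 11.2% were called (7.39% higher and 3.79% lower in Eff+), 29.9% had an unadjusted p under 0.05, and the median was -0.03.

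The BH3-only members did not pass the test in the wound, although all 4 values were above 0, as were 48.7% of all genes. Bcl2l11, on chromosome 2 from 127967958 to 128004467, was at 374, 996 and 764 CPM in Eff+ and 205, 242 and 400 CPM in Eff-. Eff+ libraries 2 and 3 stood above all others, and Eff+ library 1 lay below the highest Eff- library. The log2 fold change was 1.33 ± 0.39 (SE, edgeR adjusted p = 0.0659), the second largest among the members. It passed with DESeq2 (1.37, adjusted p = 0.00367), with no filter on low counts (1.31, 0.021), with a filter of at least 1 CPM (1.36, 0.0483) and without Eff+ library 1 (1.64, 0.03), and over all alternatives its adjusted p ran from 0.00367 to 0.449.

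Bbc3 encodes PUMA, which binds every anti-apoptotic protein of the family. It was at 6.65, 11.7 and 13.5 CPM in Eff+ and 5.80, 5.16 and 7.92 CPM in Eff-, with overlapping groups (log2 0.76 ± 0.33 SE, edgeR adjusted p = 0.169). Bid, which caspase-8 cleaves to its active form, was at 56.1, 47.9 and 44.1 CPM in Eff+ and 44.7, 30.8 and 30.3 CPM in Eff-. Only Eff- library 1 reached the Eff+ range (0.49 ± 0.20, adjusted p = 0.155). With scaling by library totals only, the Bid difference was 0.095 (edgeR adjusted p = 0.782). Bid shares 628 exon bases with Bcl2l13 on the opposite strand, and the wound reads were counted without strand. Reads there cannot be assigned to 1 of the 2 genes and may have been counted for neither. Bmf was at 3.03, 2.68 and 3.19 CPM in Eff+ and 4.47, 1.90 and 2.04 CPM in Eff- (0.08 ± 0.44, adjusted p = 0.928), and the Eff+ values lay inside the Eff- range.

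Bax, the pore-forming effector, varied least of the members in wound Eff-. It was at 118, 128 and 134 CPM in Eff+ and 138, 142 and 139 CPM in Eff-. Every Eff+ library was below every Eff- library, by a margin that did not pass the test (log2 -0.14 ± 0.14 SE, edgeR adjusted p = 0.553). With scaling by library totals only, Bax was called lower (-0.53, adjusted p = 0.042), and that scaling moved the median of all genes from -0.03 to -0.42. It also moved the split of all calls from 66.1% higher in Eff+ to 21.2%.

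Over the 10 members, 2 rose, none fell and 8 had a positive log2 fold change, with a median of 0.51. Those counts stand beside the 11.2% called, the 48.7% with a positive value and the median of -0.03 over all genes. With scaling by library totals only, Bcl2a1d (-0.29) and Bmf (-0.31) turned negative. The groups did not overlap for 4 members (Bcl2l1, Mcl1 and Bcl2a1b higher, Bax lower), against 36.8% of all genes. Both member calls lay beside the rise of the neutrophil markers given above, and the part of other cells in them was not tested. With the 20 neutrophil marker genes left out of the fit, which leaves their cells' other RNA in place, Bcl2l1 and Mcl1 kept log2 fold changes of 1.66 and 0.85.

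**Figure D2:**
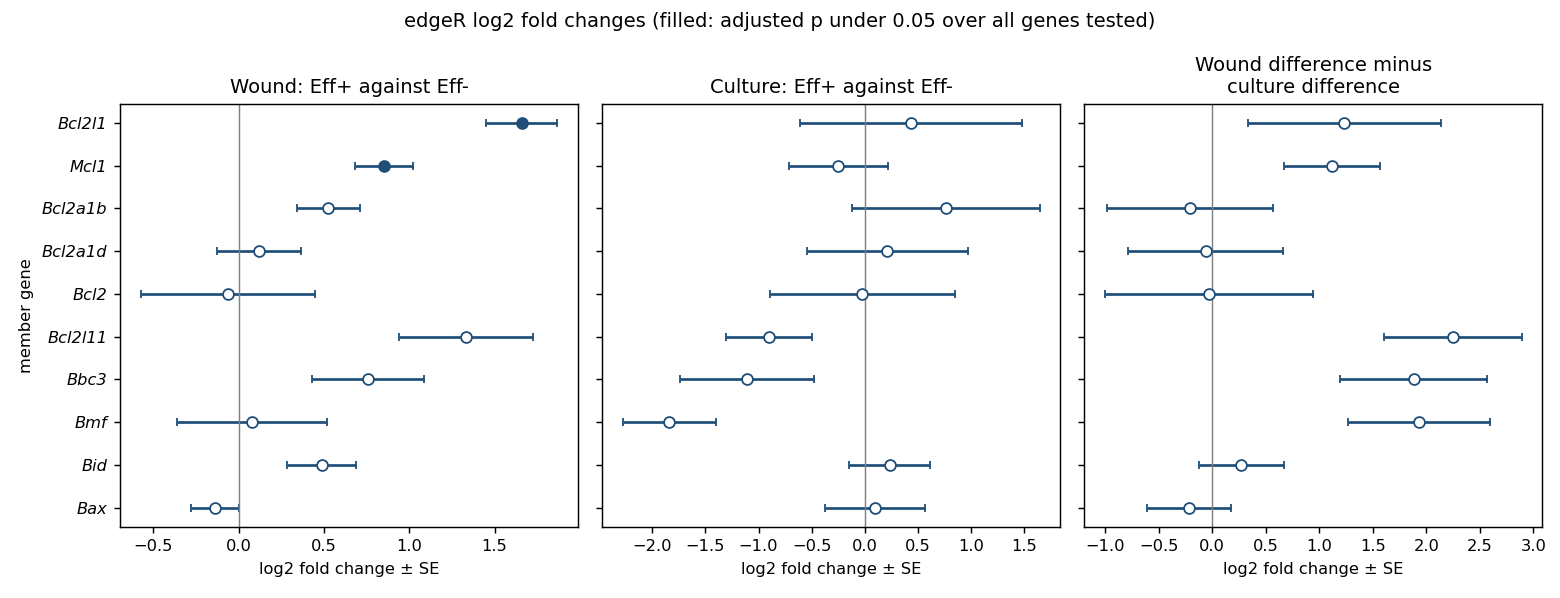
log2 fold change ± SE of each member in the wound (Eff+ against Eff-, n = 3 each), in culture (n = 2 each), and the wound change minus the culture change (all 10 libraries). Filled points passed the edgeR test at an adjusted p under 0.05: Bcl2l1 (1.66) and Mcl1 (0.85) in the wound, and none in the other panels.

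Because shares within the family do not depend on how libraries are scaled, each member was also expressed as a percentage of the summed RPKM of the 10 members. The sum itself was 651, 770 and 632 RPKM in Eff+ and 425, 409 and 449 in Eff-, with no overlap. Bcl2l1 took 9.12, 10.1 and 9.22% of it in Eff+ and 5.33, 3.98 and 5.09% in Eff-. Bax took 11.5, 10.5 and 13.4% in Eff+ and 20.6, 22.1 and 19.6% in Eff-. Thus the Bcl2l1 share was higher and the Bax share lower in every Eff+ library than in any Eff- library. The sum and the Bax level, unlike the shares, do depend on scaling. The Bax level did not pass the test (log2 -0.14, edgeR adjusted p = 0.553). With scaling by library totals only it was called lower (-0.53, edgeR adjusted p = 0.042). How much of the lower Bax share goes with the larger sum was therefore not settled. The 5 anti-apoptotic genes together took 68.4 to 78.3% in Eff+ and 66.5 to 69.6% in Eff-, and the 4 BH3-only genes 10.1 to 18.7% and 9.82 to 13.9%, with overlap in both cases. Mcl1 alone made up 44.8 ± 4.65% (SD, n = 3) in Eff+ and 39.5 ± 1.29% in Eff-.

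In culture the shares followed the replicate number more than the group. Bcl2l1 took 41.9% (Eff+) and 42.4% (Eff-) of the family in libraries numbered 1, and 17.9% and 9.36% in those numbered 2. Bax took 32.6 and 33.4% in Eff+ and 30.7 and 37.7% in Eff-. By the ratio of group means, the share of Bmf separated the groups most, at 0.247 ± 0.102% (SD, n = 2) in Eff+ and 0.915 ± 0.083% in Eff-.

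**Figure D3:**
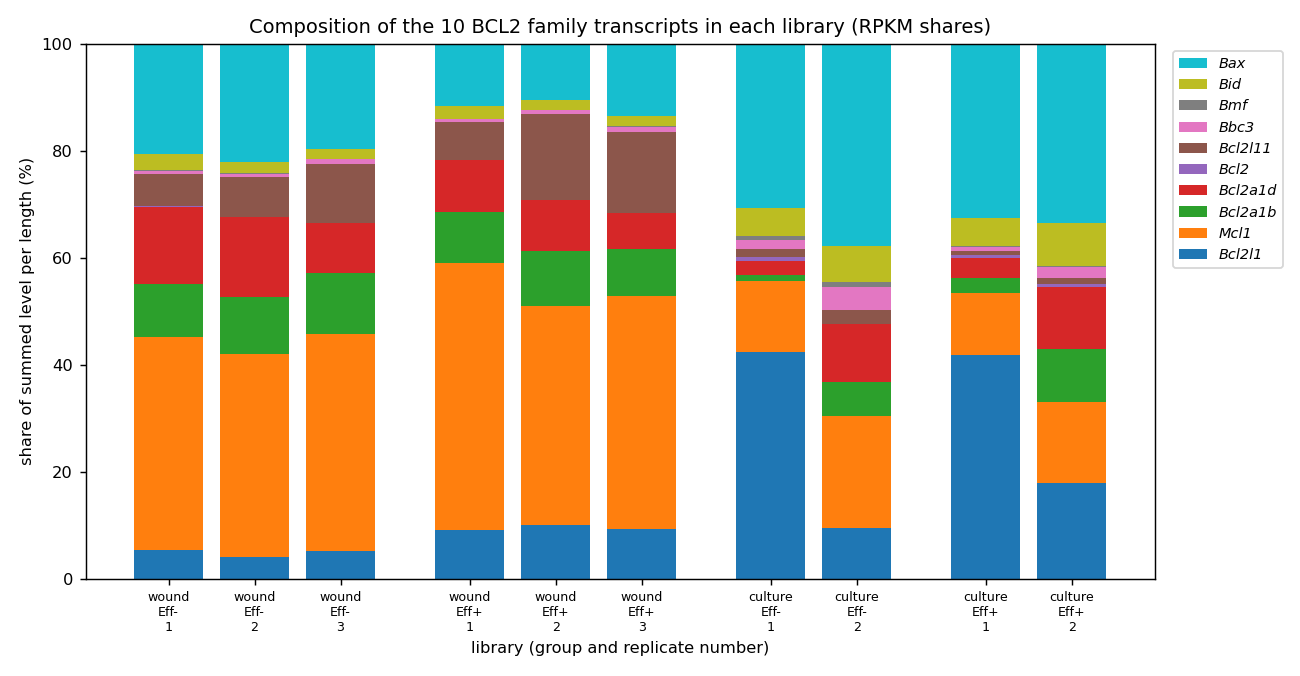
Share of each member in the summed RPKM of the 10 members, 1 stacked bar per library from 0 to 100%, grouped by model and sort. Bax narrows from 19.6 to 22.1% in wound Eff- to 10.5 to 13.4% in wound Eff+, and Bcl2l1 fills 41.9 and 42.4% of the culture libraries numbered 1.

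The second comparison put the same question to cultured macrophages. No member was called, and none of the 14867 genes tested (0%) passed the edgeR test. At an unadjusted p under 0.05 the test held 115 genes, and DESeq2 called 2. On simulated counts of this design the procedure called 0% of 4-fold changes, so a missing call says little here. Members are given as values.

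Bmf had the smallest p of the members. It was at 4.66 and 5.32 CPM in Eff+ and 17.6 and 18.1 CPM in Eff-, and the 2 libraries of each group were close to each other. That is 3.58-fold lower in Eff+ (log2 -1.84 ± 0.44 SE, unadjusted p = 0.0086, edgeR adjusted p = 1), and it ranked the fifth of all genes by p. Over the alternatives the value ran from -1.97 to -1.53. BMF is held on the cytoskeleton in healthy cells and released by loss of attachment.

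The other BH3-only genes of culture split. Bcl2l11 was at 33.5 and 31.1 CPM in Eff+ and 48.0 and 72.6 CPM in Eff-, with no overlap (log2 -0.90 ± 0.41 SE). Bbc3 was at 7.58 and 13.2 CPM in Eff+ and 12.7 and 32.2 CPM in Eff-, with overlap (-1.11 ± 0.63). Bid was at 93.8 and 90.5 CPM in Eff+ and 71.9 and 85 CPM in Eff-, with no overlap (0.23 ± 0.38). Groups failed to overlap for 3 of the 10 members (Bmf and Bcl2l11 lower, Bid higher), against 20.7% of all genes (9.42% lower and 11.3% higher).

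The anti-apoptotic genes of culture overlapped between the groups in all 5 cases. Mcl1 was at 199 and 163 CPM in Eff+ and 177 and 255 CPM in Eff- (log2 -0.25 ± 0.46 SE). Bcl2l1, with the values given above, differed by 0.43 ± 1.04. Its 2 libraries differed 3.73-fold within Eff+ alone, while the fitted change between the groups was 1.35-fold. Bcl2a1b was at 11.7 and 26.0 CPM in Eff+ and 3.73 and 18.5 CPM in Eff-, and Bcl2a1d at 16.4 and 31.8 against 8.66 and 32.9 CPM. Bcl2 was at 23.1 and 12.4 CPM in Eff+ and 30.4 and 5.66 CPM in Eff-. Bcl2 and Bcl2l1 were higher in both libraries numbered 1, and both Bcl2a1 genes in those numbered 2. Bax, at 260 and 167 CPM in Eff+ and 189 and 211 CPM in Eff-, overlapped too (0.09 ± 0.47).

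Other cell markers also moved in culture. The 12 dendritic cell markers summed to 0.00242 and 0.00694% of counts in Eff+ and 0.0185 and 0.0681% in Eff-, led by Ccl22, Ccr7 and Fscn1, with up to 2 of them at 0 in an Eff+ library. Their part in the values of Bmf and Bcl2l11, which were also higher in Eff-, was not tested. Neutrophil markers moved as well: 14 of the 16 tested were lower in Eff+, 8 of the 16 had groups that did not overlap, and the median log2 fold change was -1.54, beside -0.05 for all genes, with none called. Their sum, 0.191 to 0.290% of counts in Eff+ and 0.192 to 0.344% in Eff-, overlapped and was mostly Mmp8 (2262 CPM, next Chil3 at 197). The part of the neutrophil markers in the values of Bmf and Bcl2l11 was not tested either.

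The third comparison set the wound difference of each member against its culture difference, in 1 model of all 10 libraries. No member was called, and 0 of 20270 genes (0%) passed, with 2222 at an unadjusted p under 0.05. The gap was widest for 3 of the 4 BH3-only genes. For Bcl2l11 the wound difference exceeded that of culture by 2.25 ± 0.64 (log2, SE; edgeR adjusted p = 0.272, unadjusted 0.0049), for Bmf by 1.93 ± 0.66 (0.331) and for Bbc3 by 1.88 ± 0.69 (0.359). Mcl1 followed at 1.12 ± 0.45 (0.405) and Bcl2l1 at 1.23 ± 0.90 (0.636), and the other 5 lay between -0.22 (Bax) and 0.27 (Bid, the remaining BH3-only gene). The median over all genes was 0.32 in this test, not 0, and the members' values are to be read against it.

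DESeq2 called 797 genes in that difference, among them Bcl2l11 (2.37, adjusted p = 0.01), Mcl1 (1.23, 0.00919) and Bmf (2.06, 0.0384). Bcl2l11 was also called with no filter on low counts (2.21, 0.0256). Without culture Eff- library 2, 2009 genes were called, among them Bcl2a1b (-1.84, adjusted p = 0.0405, against -0.21 with all libraries). Without both wound libraries numbered 2 no gene was called, and Bcl2l11 was at 1.84.

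Other genes of the death machinery were read from lists of the family's relatives and partners in the wound. These lists were chosen with earlier results of these data known. Their counts of calls stand beside 7.39% of all genes called higher and 3.79% called lower in Eff+. Among 11 other BCL2 family genes tested, 1 rose and none fell: Bcl2l13, a mitochondrial protein linked to mitophagy, was at 35.3 ± 6.16 CPM (SD, n = 3) in Eff+ and 19.0 ± 4.74 in Eff- (log2 0.90, edgeR adjusted p = 0.049). It is the gene whose exons overlap Bid. Pmaip1, the p53-responsive BH3-only gene for NOXA that targets MCL1, was at 607 ± 11.1 CPM against 409 ± 83.0 and did not pass (0.57, adjusted p = 0.094). Bad was at 26.5 ± 5.79 CPM against 41.0 ± 6.33 (-0.63, adjusted p = 0.0885). Bak1, the effector beside Bax, was at 26.3 ± 5.42 against 31.6 ± 1.36 CPM (-0.26, adjusted p = 0.401). Pmaip1, Bad and Bak1 lie outside the rule for named genes and were picked after their values were seen, for their roles beside the members.

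Downstream of the mitochondria, 1 of 10 apoptosome and caspase genes fell and none rose. Casp2, an initiator caspase, was at 7.82 ± 0.444 CPM in Eff+ and 14.0 ± 1.21 in Eff- (log2 -0.84, edgeR adjusted p = 0.039). Of 7 inhibitors of apoptosis, 2 rose: Birc3, which encodes cIAP2, from 365 ± 59.8 CPM in Eff- to 846 ± 99.4 in Eff+ (1.21, adjusted p = 0.013), and Birc2, its partner cIAP1, from 29.5 ± 2.80 to 47.4 ± 3.36 CPM (0.68, 0.0328). Both are ubiquitin ligases of the TNF receptor complex. Of 12 death receptor and adaptor genes, Fas alone rose, from 113 ± 18.4 to 398 ± 68.6 CPM (1.82, adjusted p = 0.0097).

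In the p53 pathway list, 4 of 13 genes rose and none fell. Over all genes, 7.39% were called higher and 3.79% lower in Eff+, and no list was tested as a set. Gadd45a rose by 1.88, Sesn2 by 1.77 and Trp53inp1 by 1.21 on the log2 scale (edgeR adjusted p = 0.0097, 0.0097 and 0.0217). These 3 are stress-induced genes. The fourth, Perp, is also on the keratinocyte list and stayed under 5 CPM. Of 17 transcription factors known to act on the members, 4 rose and none fell. Ddit3 (CHOP, of the integrated stress response) rose by 1.44, Cebpb by 1.30 and Foxo3 by 0.81 (adjusted p = 0.017, 0.0122 and 0.0381), and the fourth was Stat3. Of 9 survival cytokine receptor genes, 2 rose: Csf3r, the G-CSF receptor that is also a neutrophil marker, by 2.20 (adjusted p = 0.0097), and Csf2rb, the shared chain of the GM-CSF and IL-3 receptors, by 1.00 (0.0151). None of 9 genes of MCL1 protein turnover and none of 14 mitochondrial outer membrane partners passed. The median log2 fold changes of these lists ran from -0.18 (apoptosome and caspases) to 0.50 (transcription factors), beside 0.51 for the members and -0.03 for all genes.

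All 13 named genes of the related lists that were called lost their call without Eff+ library 2 and without both libraries numbered 2. Bcl2l1 and Mcl1 did so too, and each of the 13 kept its direction. In the fit over all 10 libraries 11 of them lost it, Gadd45a and Sesn2 being the exceptions. Bcl2l13, Casp2, Birc2 and Foxo3 lost their call whichever single wound library was left out, and Trp53inp1 with any Eff- library left out. Birc3 and Csf2rb lost theirs without Eff- library 1 or 2, and Ddit3 and Cebpb without Eff- library 2. Bcl2l13 also lost it under relative log expression scaling, Casp2 and Birc2 with no filter on low counts, and Bcl2l13, Birc2 and Foxo3 with library totals only. Keratinocyte markers summed to 0.00393 to 0.00731% of counts in Eff+ and 0.000574 to 0.00195% in Eff-, without overlap. All 12 fibroblast markers had a log2 fold change above 0, with a median of 1.27, and 2 of them rose, while their sums, 0.0694 to 0.232% in Eff+ and 0.025 to 0.14% in Eff-, overlapped. Endothelial markers went the other way: all 7 tested were below 0, with a median of -1.15. Their sums, 0.00323 to 0.00336% in Eff+ and 0.00515 to 0.0076% in Eff-, did not overlap. Of 11 dendritic cell markers tested, 9 were below 0, with sums that overlapped. The part of these markers in the values of the members and their relatives was not tested.

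**Figure D4:**
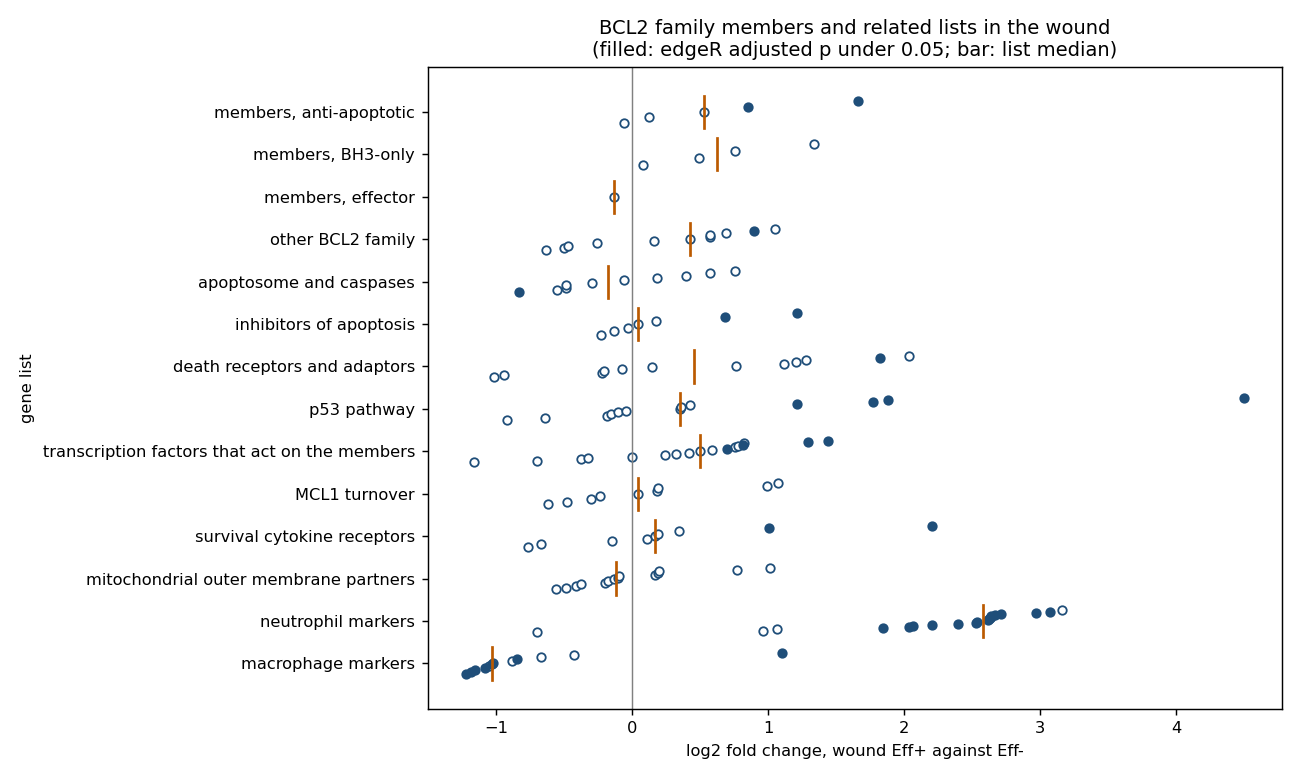
log2 fold change of wound Eff+ against Eff- (n = 3 each) for every tested gene of the member lists, of the related lists and of 2 marker lists, 1 point per gene, with a bar at the list median. Filled points passed the edgeR test at an adjusted p under 0.05, and 16 of the 20 neutrophil markers and 2 of the 10 members are filled.

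In culture the related lists held no call, as no gene was called at all. Their 2 genes of smallest p each are given as values, Eff+ against Eff- on the log2 scale, all with an edgeR adjusted p of 1. Receptors were at -1.62 (Csf3r) and -0.86 (Il6ra), and transcription factors at -1.02 (Relb) and -1.01 (Nfkb1), both NF-kB subunits. Cycs, the gene of cytochrome c, was at 1.05 and Casp2 at -0.70. The p53 genes Sesn2 and Cdkn1a were at -0.60 and -0.68, Birc3 and Naip2 at -0.73 and -0.65, and Fas and Mlkl at -1.08 and 0.76. Pmaip1 and Bok were at -0.94 and 1.24, Gsk3a and Fbxw7 at -0.81 and -0.41, and Mfn2 and Tomm20 at 0.56 and 0.59. Casp2 was thus below 0 in both models, while Fas, Sesn2, Birc3 and Csf3r were above 0 in the wound and below 0 in culture. The test of the difference between models did not call these 4 (edgeR adjusted p = 0.275, 0.116, 0.24 and 0.1 in that order).

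The genes whose pattern over the 10 libraries was most like that of the called members were read from log2 CPM centred within each model, over 13091 genes, as a description. For Bcl2l1 they were Mir27a (r = 0.99), Gm23722 (0.97) and Mir23a (0.97). For Mcl1 they were Zkscan6 (0.98), Gm43661 (0.97) and Ets2 (0.97). For Bmf, the member of smallest p in culture, they were Pik3ip1 (0.93), Setd1b (0.90) and Il6ra (0.90). Such values share the libraries, their depth and the groups themselves. Centring within a model also keeps the gap between culture libraries numbered 1 and 2. For Bcl2l1 these held 971 and 761 CPM (number 1) against 261 and 152 CPM (number 2). The part of that gap in r was not tested. Among the 45 pairs of members, r was highest for Bcl2a1b with Bcl2a1d (0.86), the near-identical copies, and for Bcl2l11 with Bbc3 (0.83), and lowest for Bcl2 with Bbc3 (-0.63).

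**Figure D5:**
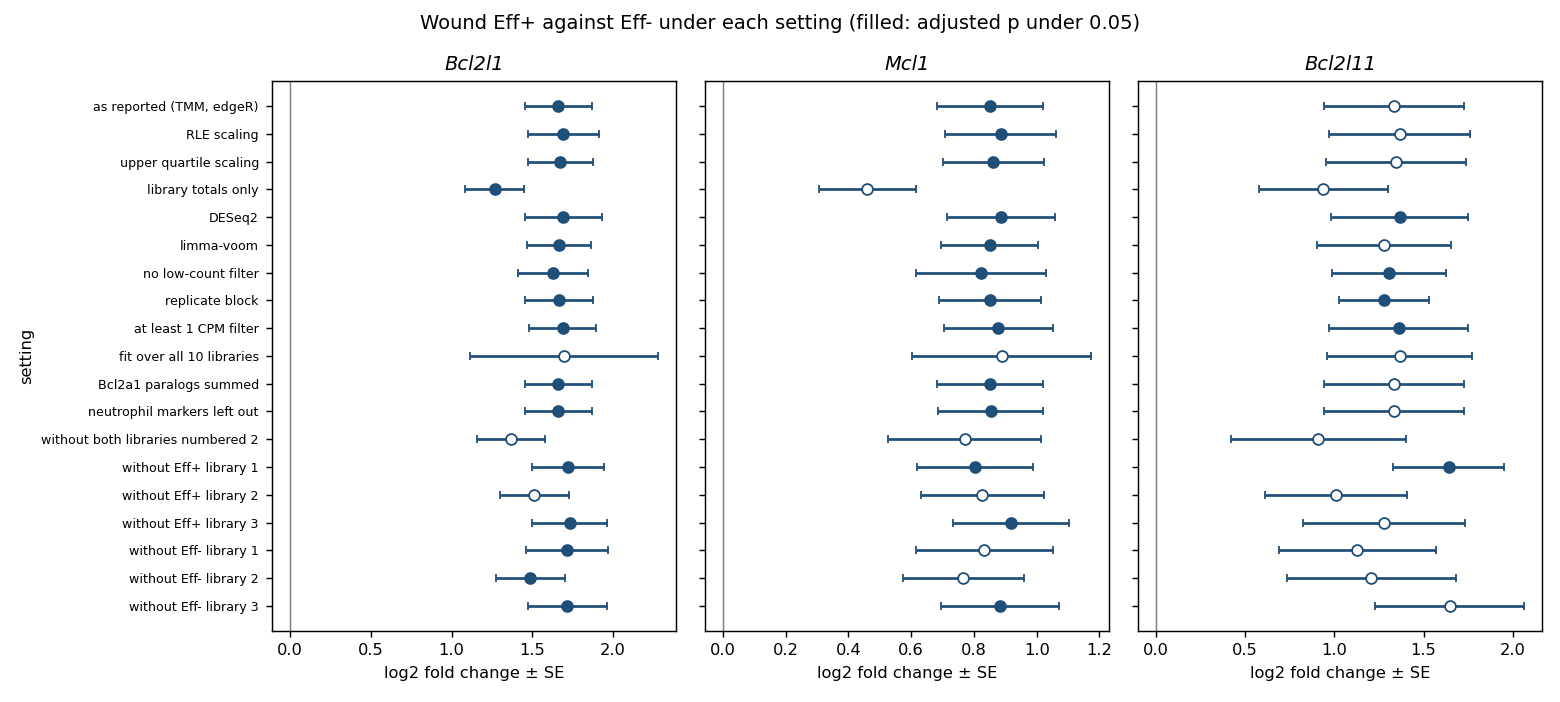
log2 fold change ± SE of Bcl2l1, Mcl1 and Bcl2l11 in wound Eff+ against Eff- under each processing alternative and with libraries left out. Filled points have an adjusted p under 0.05, and all points lie above 0, from 1.27 to 1.73 for Bcl2l1, 0.46 to 0.92 for Mcl1 and 0.91 to 1.65 for Bcl2l11.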

How the data were processed

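The authors deposited raw read counts per gene, 1 table per model. Wound reads were counted with featureCounts 1.6.0 at default settings, with no strand option, against Ensembl release 106 of GRCm39, per the file headers. Neither the aligner nor the culture table's counting command is given in these sources. Trimmomatic 0.39 is named in the submitters' processing notes. In the culture table, 4 columns match no sample and were not used. Symbols came from GENCODE vM21 (52081 of 55414 identifiers, 99.91% of counts).

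Groups follow the sample titles. Wound and culture were fitted separately in edgeR 4.0.16 (R 4.3.3): TMM scaling, filterByExpr, quasi-likelihood test without covariates, Benjamini-Hochberg adjustment over all genes tested, called under 0.05. The difference between models was an interaction over all 10 libraries. SE is the log2 fold change over the square root of F. RPKM uses exon lengths of the deposited wound table. Log2 CPM for pattern likeness used a prior count of 2.

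Members and lists were chosen with earlier results of these data known. Named were all members, up to 3 called genes per direction and list with a mean of at least 5 CPM, and, where nothing was called, the 2 genes of smallest p per list; for the difference between models, members and 4 genes already named in both models. Marker lists of 7 cell types were summed. Alternatives were other scalings, DESeq2 1.42.0, limma-voom (limma 3.58.1), other filters, a replicate block, summed Bcl2a1 copies, neutrophil markers left out, and libraries left out. Leaving out both wound libraries numbered 2 from the difference between models, and the summed Bcl2a1 CPM per library, were added after seeing the data.

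Tested on simulated counts, the procedure called 4% of 2-fold and 45% of 4-fold changes in the wound design (14908 genes, 3 unchanged genes called), and 0% of both in the culture design (14867 genes, 3 called) and for the difference between models (20270 genes, 0 called). Replicates of every group differed beyond sampling noise (chi-square over degrees of freedom of 78.9 or more).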

Additional observations from a re-analysis of the deposited data

How the results depend on the processing

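In the wound, calls over all genes numbered 1666, and 3368 with library totals only (714 higher and 2654 lower in Eff+), 3150 with DESeq2, 2985 with a replicate block, 82 in a fit over all 10 libraries, 0 without both libraries numbered 2, and 0 (without Eff+ library 2) to 1347 with 1 library left out. Members called numbered 2, and 0 in the fit over all 10 libraries, 0 without both libraries numbered 2, and 0 to 3 with 1 library left out. Bcl2l1 and Mcl1 stayed above 0 under all 18 alternatives and passed under 15 and 12; in the fit over all 10 libraries their adjusted p was 0.226 and 0.195. The replicate block called Bcl2l11 too (adjusted p = 0.016).

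In culture, calls over all genes numbered 0, and 2 with DESeq2, 2 with no filter, 48 with the replicate block, and 0 to 27 with 1 library left out. No member was called under the 14 alternatives run. For the difference between models, all calls numbered 0, and 797 with DESeq2, 517 with no filter, 441 with the replicate block, and 0 to 2009 with 1 library left out. Members called there numbered 3 with DESeq2, 1 with no filter, 1 with the replicate block (Bcl2l11, adjusted p = 0.0477) and 0 to 1 with 1 library left out.

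Reversals touched only values that were not called. In the wound they were Bcl2 at 0.056 (limma-voom), 0.083 (replicate block) and -0.41 to 0.49 with 1 library left out; Bcl2a1d at -0.29 (library totals only) and -0.067 to 0.31; and Bmf at -0.31 (library totals only), -0.069 (without both libraries numbered 2) and -0.16 to 0.57. In culture, Bcl2 was at 0.33 (limma-voom), 0.42 (no filter), 0.35 (replicate block) and 0.0045 (all 10 libraries). With 1 culture library left out, Bcl2l1 ran from -0.77 to 2.05, Bax ran from -0.22 to 0.48, Bcl2 ran from -0.50 to 1.68, Bcl2a1d ran from -0.42 to 1.77, Pmaip1 ran from -1.87 to 0.87, Mcl1 ran from -0.45 to 0.33, Bbc3 ran from -1.59 to 0.0092, Birc3 ran from -1.12 to 0.16, Naip2 ran from -0.98 to 0.13 and Fas from -1.94 to 0.75. For the difference between models, Bcl2 was at 0.15 (RLE scaling), 0.14 (upper quartile) and 0.15 (DESeq2), Bcl2a1d at 0.018 (RLE) and 0.018 (DESeq2), and Bid at -0.040 (library totals only). With 1 library left out, Bcl2 ran from -1.73 to 0.68, Bcl2a1d ran from -1.38 to 0.57, Bax ran from -0.53 to 0.12, Bcl2a1b ran from -1.84 to 0.50 and Bcl2l1 from -0.38 to 2.45. The cause of these changes was not tested, except that leaving out libraries leaves fewer samples and, in culture, 1 library in a group, which is then assumed to vary like the other group.

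Same-numbered libraries are not stated to share an animal or culture. Their deviations correlated at 0.25, -0.01 and 0.13 in the wound and 0.74 in culture, so the block stands as an alternative. Depth limits Bcl2 and Bmf in the wound, at 59 to 226 and 89 to 225 counts per library, and the 2 culture libraries per group limit every culture value.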
